A study of Mus musculus with 10 samples.

Results

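Methylation of adenosine at N6 (m6A) was compared between arrested 3T3-L1 preadipocytes (DMSO Pre) and cells in mitotic clonal expansion (DMSO MCE), the round of division that follows the hormone cocktail. 3T3-L1 is a clonal mouse fibroblast line that turns into fat cells. The members were the peaks of 2 deposited lists, 2824 peaks of DMSO Pre and 5128 peaks of DMSO MCE, which together made 7952 of the 17036 peaks in the 5 lists of the series. A peak is a stretch of transcript where RNA pulled down with an m6A antibody (the IP) exceeded the RNA it was pulled from (the input). A peak was shared when chromosome and strand agreed and the spans overlapped by at least 1 base, and all other peaks were Pre-only or MCE-only.

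Both conditions were 3T3-L1 cells with no genetic change named in the labels, held at confluence for 2 days before induction, and both carried the solvent dimethyl sulfoxide (DMSO) in their names. The labels give every sample, DMSO Pre included, the same text on induction, on treatment from day 0 to day 3 and on later feeding with insulin at 10 µg/ml. Per the methods of the study, Pre was day 0 and MCE was day 3 after IBMX, dexamethasone and insulin had been added. Each side had 1 IP and 1 input library, so there was no replicate spread to judge a difference by and no test was run. The intervals are 95% Wilson intervals and cover counting error over peaks or genes only. The lists hold no read numbers, so the depth of the libraries is unknown. The source names of these samples count through numbers after 3T3-L, while the study's methods name 3T3-L1.

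The m6A mark is written on nascent RNA by the METTL3 and METTL14 complex, mostly at an adenosine within the bases GGAC, and it is frequent in long exons and near the end of the coding sequence. Reader proteins bound to the mark speed the decay of many transcripts, so marked messages tend to turn over quickly. Confluent preadipocytes rest in G1, make collagen-rich matrix, and re-enter the cycle after induction. Insulin acts through the insulin receptor substrates, dexamethasone through the glucocorticoid receptor, and IBMX blocks phosphodiesterases and so raises cyclic AMP.

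The following 30-base windows show a GGAC, in capitals, from peaks that stand for the 3 outcomes. Each is the GGAC nearest the peak's midpoint, read 5′ to 3′ on the transcript strand from the GENCODE M21 transcripts of GRCm38. The first set was Pre-only, from the interferon-induced genes Rnf213 (chr11:119441194-119441223, plus strand, coding, exon 28), Ifit3 (chr19:34588397-34588426, plus strand, 3′ UTR) and Rtp4 (chr16:23613516-23613545, plus strand, coding), and from the collagen gene Col6a3 (chr1:90803780-90803809, minus strand, coding, exon 10).
Rnf213: aaggtccatggagGGACaacaccatccatg
Ifit3: accatgaacctgaGGACaaccggaagtgtg
Rtp4: tgtcatttcaataGGACagtgaattcatat
Col6a3: acattgataggacGGACttgcaaaccatca

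The second set was MCE-only, from the insulin receptor substrate gene Irs2 (chr8:10986344-10986373, minus strand, 3′ UTR), the phosphodiesterase gene Pde4b (chr4:102605186-102605215, plus strand, coding, exon 15), the proliferation marker Mki67 (chr7:135700711-135700740, minus strand, coding, exon 12) and the chromosomal passenger gene Incenp (chr19:9893519-9893548, minus strand, coding, exon 4).
Irs2: tctccgtgggattGGACttgaagatggatt
Pde4b: agaggattctgagGGACcggaaaaggaggg
Mki67: atcaacaggtgcaGGACaatgaaaacgctc
Incenp: cctgggggctgcaGGACtctcctggctcta

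The third set was shared, from the chaperone gene Hspa5 (chr2:34776139-34776168, plus strand, exon 9), the protease gene Adamts1 (chr16:85795633-85795662, minus strand, coding, exon 9), the early adipogenic factor gene Cebpb (chr2:167690139-167690168, plus strand, 3′ UTR) and the AP-1 gene Junb (chr8:84978095-84978124, minus strand, coding). The Hspa5 peak had its midpoint in the coding sequence, but the window printed lies 3′ of that midpoint and is not labelled as coding. In these 4 genes the same GGAC was nearest the midpoint in both lists.
Hspa5: tattgtaaatactGGACtcaggaactttcg
Adamts1: cagagacattaacGGACaccctgcttccga
Cebpb: gcgtgtggacacgGGACtgacgcaacacac
Junb: gcccacgcctccgGGACagtacttttaccc

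The first question was how much of the resting pattern remained once cells had re-entered the cycle. Of the DMSO Pre peaks, 1273 were shared, or 45.1% (interval 43.3 to 46.9), and 1551 were Pre-only. Of the DMSO MCE peaks, 1280 of 5128 were shared (interval 23.8 to 26.2%), and 3848 were MCE-only. Because a longer list holds more chances to overlap, the comparison was repeated with DMSO MCE cut to 2824 random peaks. Then 740 DMSO Pre peaks were shared, or 26.2% (24.6 to 27.9), and 728 peaks of the draw, or 25.8% (24.2 to 27.4). This left 2084 Pre-only and 2096 MCE-only peaks, numbers that lists of equal length bring close together by themselves. The mean over all possible draws was 715.5 shared DMSO Pre peaks, computed exactly.

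**Figure D1:**
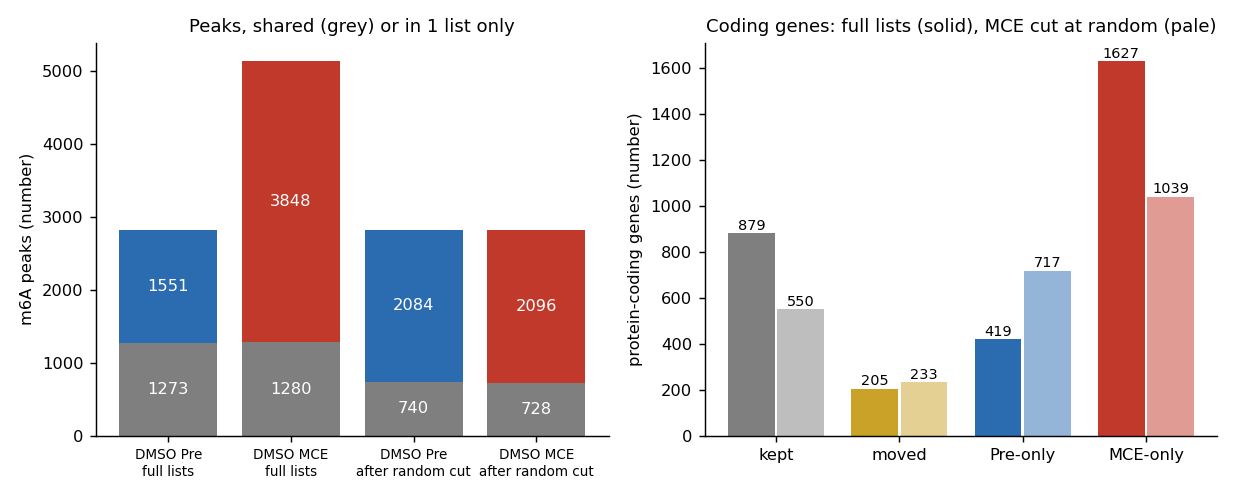
Numbers of m6A peaks (left) and of protein-coding genes (right) in each class, for the full lists and after a random cut of DMSO MCE to the length of DMSO Pre. The 3848 MCE-only peaks of the full list became 2096 after the cut, while the Pre-only bar grew from 1551 to 2084.

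Sharing depended on the deposited score, which ranks peaks within a list and is not an enrichment. Among the highest-scoring 10% of DMSO MCE peaks, 64.6% (60.4 to 68.7) were shared, against 8.89% (7.45 to 10.6) of the lowest-scoring 25%. In DMSO Pre the step was smaller, from 55.7% (49.8 to 61.4) of the top 10% to 34.8% (31.4 to 38.4) of the lowest 25%. Many of the strongest resting peaks thus had no counterpart at MCE. When DMSO MCE was cut to its 2824 highest scores in place of a random draw, 36.4% of DMSO Pre peaks were shared.

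Genes were sorted into 4 classes. Kept genes had at least 1 shared peak, moved genes had peaks in both lists but none shared, and the rest had peaks in 1 list only. Of 3130 protein-coding genes with a peak, 879 (28.1%) were kept, 205 (6.55%) moved, 419 (13.4%) Pre-only and 1627 (52.0%) MCE-only. With the random draw of DMSO MCE, 2539 coding genes had a peak, and the shares were 21.7% kept, 9.18% moved, 28.2% Pre-only and 40.9% MCE-only. With DMSO MCE cut to its highest scores, 2305 coding genes had a peak, and the shares were 30.2%, 6.12%, 28.9% and 34.8% in the same order. These shares are the background for every gene group below. In bulk cells a lost peak can mean less of the transcript, fewer cells that hold it or less methylation, and the lists cannot tell these apart. A gene with no peak can be unmarked or not expressed, and these look the same.

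Genes of the interferon response held most of their peaks in DMSO Pre alone. Interferon-stimulated genes are antiviral genes that interferons switch on in a target cell. Of 71 such genes, 43 had a peak, and 28 of these were Pre-only, 14 kept, 1 moved and 0 MCE-only. Pre-only members were thus 65.1% of the group, against 13.4% of all coding genes, and 79.1% against 28.2% with the random draw. The group's peaks numbered 136 before and 23 after induction, and 39 members had fewer peaks at MCE, 3 equal numbers and 1 more. The list was written after the first Pre-only genes had been seen. Without 10 members already noticed in that way, 20 of 33 members with a peak were Pre-only and 0 MCE-only. The peaks of these 33 numbered 67 in DMSO Pre and 20 in DMSO MCE.

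The antiviral effectors are given first, with genes chosen after their values had been seen. Rnf213, a giant ubiquitin ligase induced by interferon, went from 33 peaks to 2, the largest drop of any gene with peaks in both lists. Of the 33 peaks 30 lay in the coding sequence and 3 in the 3′ UTR, and the best ranked 20 of 2824. Samd9l, a growth-restraining antiviral gene, went from 8 peaks to 1. Helz2, a nuclear coactivator helicase, had 6 peaks and then 0.

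Further members had peaks in DMSO Pre alone. Ifit1 and Ifit2 had 4 peaks each, Ifit3 3 peaks with a best rank of 28, and Oasl2 4 peaks, and none of them had a peak in DMSO MCE. The ADP-ribosylating Parp14 had 4 peaks and Parp10 2, again against 0. Gbp3 and Gbp7, guanylate-binding GTPases, had 1 and 3 peaks and then 0. Ifit3 and Ifit3b, and the Gbp genes, are close copies, so that reads may be divided between them.

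The transcription factors of the pathway were also involved. Irf9 went from 1 peak to 0 and Stat2 from 4 to 1. The sensor genes Ddx58 and Ddx60 had 1 peak each in DMSO Pre only. Members with peaks left at MCE included Eif2ak2 (3 and then 2), Znfx1 (5 and 2), Adar (2 and 1) and Trim25 (1 in each). Of the antigen presentation genes Tap1 and Nlrc5 were Pre-only with 1 and 2 peaks, Tap2 went from 2 peaks to 1 and H2-D1 from 7 to 4. H2-K1 went from 2 to 3, and B2m held 1 peak in each list at separate places. Of the 136 DMSO Pre peaks of the group, 97 had their midpoint in the coding sequence, 29 in the 3′ UTR and 5 in the 5′ UTR, and 76 held a GGAC.

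The other lists of the series gave a further view of the same genes. In DMSO Diff, 6 of the 71 genes had a peak, with 8 peaks in all, and in rhein MCE (cells given the anthraquinone rhein) 5 genes had 11 peaks. Of the 28 Pre-only members, 1 (Ifi204) had a peak in DMSO Diff and 0 in rhein MCE. These lists held 2944 and 3069 peaks, a length close to that of DMSO Pre. The rhein MCE list shares 3067 spans with the rhein Diff list of 3071 peaks, so that its stage is not certain. The interferon peaks therefore stood in the single DMSO Pre pair, and a state of resting cells and a state of that one culture cannot be told apart.

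**Figure D2:**
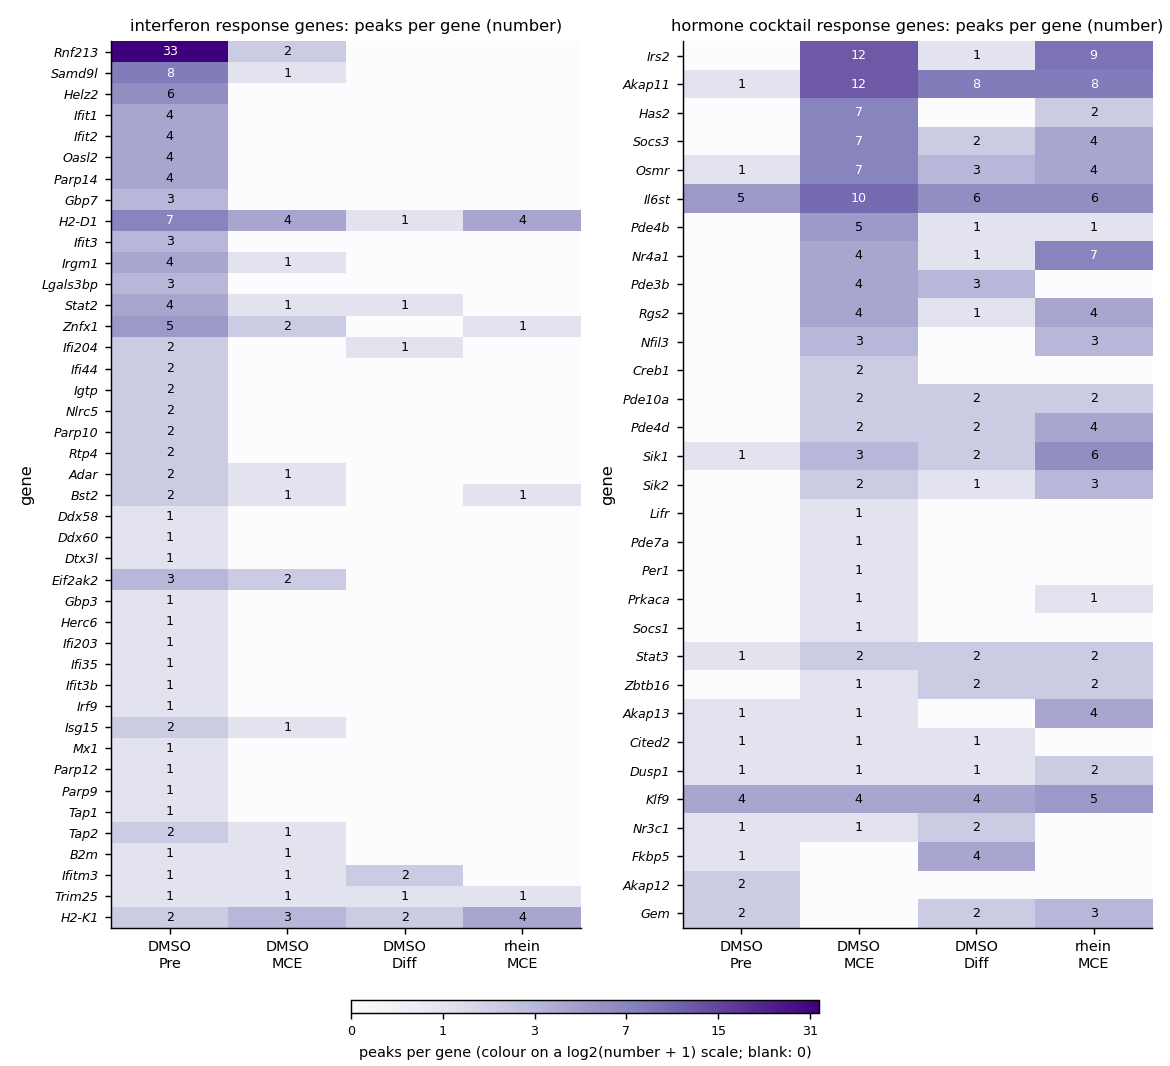
Number of peaks per gene in 4 lists for members with a peak in DMSO Pre or DMSO MCE (1 interferon gene is not shown), for interferon response genes (left) and genes of the cyclic AMP, glucocorticoid and cytokine response (right). Rnf213 fell from 33 peaks to 2 and most interferon genes are blank outside DMSO Pre, while Irs2, Socs3 and Has2 are blank in DMSO Pre.

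Matrix genes were often kept, but had fewer peaks in total at MCE. Of 64 genes for collagens, matrix proteins and their modifiers, 37 had a peak, with 19 kept, 1 moved, 10 Pre-only and 7 MCE-only. The 19 of 37 kept stood against 28.1% of all coding genes. With the random draw 13 of 34 were kept, against 21.7%, and with the highest DMSO MCE scores 19 of 36, against 30.2%. Pre-only was 27.0% of the group against the 13.4% background, and 41.2% against 28.2% with the random draw. With the highest DMSO MCE scores it was 27.8%, near the 28.9% of all coding genes. In total 124 peaks became 84 (48 with the draw). Fewer peaks were found in 22 genes and more in 12, and in 27 and 7 with the draw.

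Col6a3, a chain of the beaded-filament collagen VI, had 10 peaks, all in DMSO Pre. Col1a2, a chain of the main fibrillar collagen, had 4 peaks in DMSO Pre, of which 1 ranked 10 with a score of 86.4, and Col1a1 had 2, and both had 0 at MCE. The Col1a2 peak of rank 10 lay in the 3′ UTR, in the last exon, at chr6:4540676-4540725. The adhesion-modulating thrombospondins were kept but thinned, Thbs1 from 11 peaks to 1 and Thbs2 from 9 to 2. The chemokine gene Cxcl12 and the steroid hydroxylase gene Cyp1b1, both outside the matrix list, had 5 peaks each and then 0.

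Other matrix genes went the opposite way. Nid1, which links laminin to collagen IV, went from 4 peaks to 12, and 3 of the 4 were shared. Col18a1, the source of endostatin, went from 2 to 8. Vcan, a large proteoglycan, was nearly even with 8 and 9 peaks, and its best peaks ranked 74 of 2824 and 25 of 5128. Spon2 had 1 MCE-only peak, of rank 53.

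Genes of the division machinery gained peaks. Of 67 mitosis genes 25 had a peak, with 18 MCE-only, 4 kept, 1 moved and 2 Pre-only. MCE-only was 72.0% of the group against 52.0% of all coding genes, and 65.0% against 40.9% with the random draw. Of 60 DNA replication genes 13 had a peak, 11 of them MCE-only (84.6%), and 7 of 9 (77.8%) with the random draw. In total mitosis genes went from 9 peaks to 58 (32 with the draw), and replication genes from 2 to 18 (9 with the draw).

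Top2a, the topoisomerase that untangles chromosomes, had 10 peaks, all MCE-only, 8 of which lay in the coding sequence. Its best peak ranked 148. Mki67, the proliferation marker that coats mitotic chromosomes, had 9 peaks, 8 of them coding, against 0. The passenger complex showed the same pattern, with 4 peaks in Incenp and 2 each in Aurkb and Birc5, all MCE-only. Rad21, a cohesin subunit, had 4 peaks against 0, while the cohesin genes Smc3 and Wapl were kept and Smc1a moved.

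The replicative helicase genes Mcm2 and Mcm5 had 1 MCE-only peak each, and Mcm3 and Mcm4 had 2. The polymerase gene Pola1 had 3, and the flap nuclease gene Fen1 and the clamp loader gene Rfc1 had 2 each. Their scores were low, with best ranks between 856 for Mcm3 and 5004 for Cdc7 of 5128. With the 2824 highest DMSO MCE scores, 4 of 6 replication genes (66.7%) and 9 of 16 mitosis genes with a peak were MCE-only, against 34.8% of all coding genes. The exceptions in the other direction were Orc6 of the origin recognition complex, Tpx2 and Cdk1, each with 1 Pre-only peak.

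A list of 52 genes held the G1 cyclins, cyclin-dependent kinases, their inhibitors, Rb and E2F. It also held cyclins and kinases of transcription, such as Ccnt1, Cdk9 and Cdk12, which do not control G1. Of the 52 genes 20 had a peak, and 10 were kept, 3 moved, 1 Pre-only and 6 MCE-only. Kept members included the G1 kinase gene Cdk4, the transcription kinase gene Cdk9, the inhibitor genes Cdkn1b, Cdkn2a and Cdkn2b, and E2f1. The 6 of 20 were a smaller share than the 52.0% background, and with the random draw the share was 12.5%. The cyclin D genes split, with 1 MCE-only peak in Ccnd1 and 1 Pre-only peak in Ccnd2. Myc, the growth factor-induced regulator, had 1 MCE-only peak in its 3′ UTR, of rank 465.

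Genes tied to quiescence were divided. Of 17 with a peak, 6 were kept, 2 moved, 4 Pre-only and 5 MCE-only. Pre-only members were the stress-sensor genes Sesn2 and Sesn3, the arrestin-like Txnip and the factor gene Klf2, with 1 peak each. Gas1 went from 7 peaks to 5, and Gas7 from 4 to 8. Gas6, the ligand of the receptor AXL, had 4 peaks and then 1 at another place, and its receptor gene Axl had 3 Pre-only peaks. Rgs2, which limits signals of G protein-coupled receptors, had 4 MCE-only peaks.

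Genes that respond to the inducing hormones gained peaks in number more than in class. The group comprised 52 genes of cyclic AMP, glucocorticoid and cytokine signals, and it too was written after leading genes had been seen. Of 31 with a peak, 18 were MCE-only, 7 kept, 3 moved and 3 Pre-only, and 22 peaks became 102 (56 with the random draw). MCE-only was 58.1% against the 52.0% background, a share near it, and 55.2% against 40.9% with the random draw. Without 7 members already noticed, 13 of 24 were MCE-only, and 20 peaks became 50. More peaks at MCE were seen in 23 of the 31, and in 19 of them even with the random draw.

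Irs2, which couples the insulin receptor to PI3K, had the most peaks of all MCE-only genes, 12, of which 8 lay in the coding sequence and 4 in the 3′ UTR. Its paralog Irs1 went the other way, with 3 peaks and then 0. The phosphodiesterases, which degrade cyclic AMP and are the target of IBMX, supplied MCE-only peaks in Pde10a (2), Pde4b (5), Pde3b (4), Pde4d (2) and Pde7a (1). The best Pde10a peak ranked 5 of 5128, the highest rank of any MCE-only gene. Akap11, an anchor of the cyclic AMP-dependent kinase, went from 1 peak to 12, the largest gain among genes with peaks in both lists.

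Other members of the group act in cytokine signals. Socs3, an inhibitor of JAK kinases, had 7 MCE-only peaks, 1 in the 5′ UTR, 2 in the coding sequence and 4 in the 3′ UTR. The shared receptor chain gene Il6st went from 5 peaks to 10 (4 with the random draw), and the oncostatin receptor gene Osmr from 1 to 7. Has2, a member of the group that makes hyaluronan, had 7 MCE-only peaks. Among all MCE-only genes, S1pr3, a sphingosine phosphate receptor gene, and Sash1 were also among those with the most peaks, 8 each. The glucocorticoid-induced Fkbp5 stood against this direction, with 1 Pre-only peak.

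**Figure D3:**
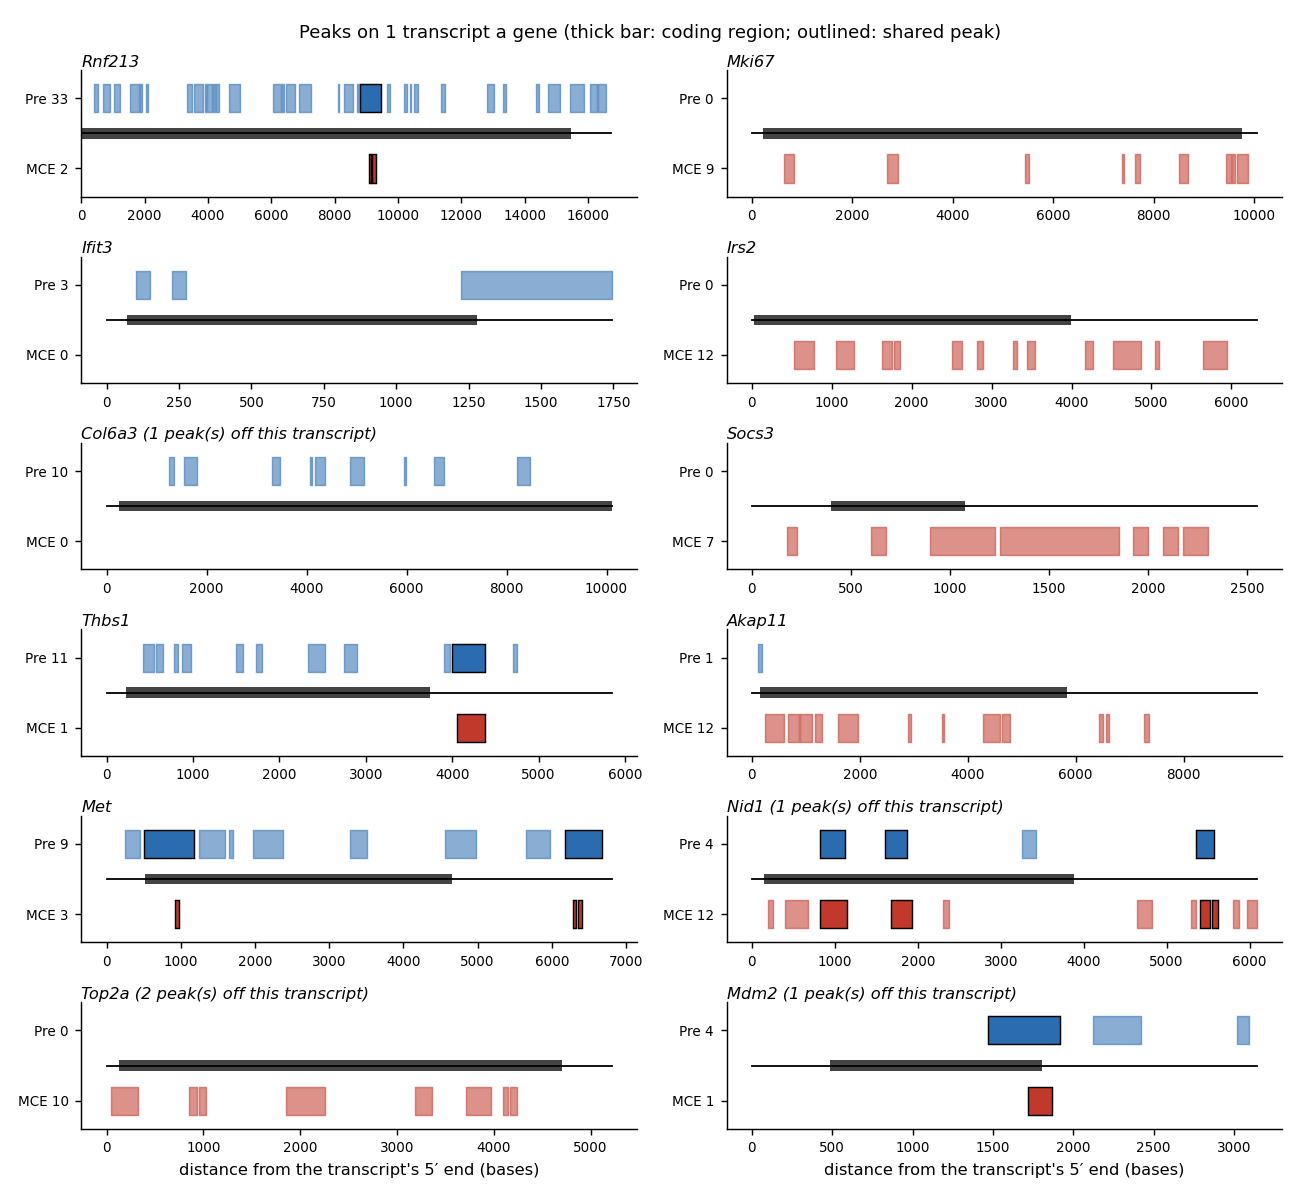
Peaks of 12 genes along 1 transcript each, as distance in bases from its 5′ end, with DMSO Pre above and DMSO MCE below and the peak numbers on the vertical axis. Thick bars are coding regions and outlined peaks are shared. Rnf213, Thbs1 and Met are filled above, with 33, 11 and 9 peaks, and Irs2, Akap11 and Nid1 below, with 12 each.

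Immediate early genes, which growth factors and cyclic AMP switch on within minutes, were divided. Of 25 with a peak, 10 were kept, 1 moved, 3 Pre-only and 11 MCE-only. Total peaks went from 21 to 60, but from 21 to 24 with the random draw. Egr1 went from 1 peak to 6, Ier5 from 1 to 7 and Jun from 2 to 5. Junb had its best peak at rank 2271 of 2824 in DMSO Pre and at rank 6 of 5128 in DMSO MCE, and the spans overlapped. Nr4a1, an orphan nuclear receptor induced by cyclic AMP, had 4 MCE-only peaks. Rhob and Gem had 3 and 2 Pre-only peaks.

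Of 23 genes for receptor kinases and growth factors with a peak, 11 were kept, 2 moved, 3 Pre-only and 7 MCE-only, and with the random draw 7 were kept. Met, the receptor of hepatocyte growth factor, went from 9 peaks to 3, while its ligand gene Hgf had 4 MCE-only peaks. Pdgfra, which marks preadipocytes, went from 5 peaks to 2. Its coding peak in exon 15, at chr5:75181528-75181602, ranked 3 in DMSO Pre with a score of 143.6 and was Pre-only. The peak in its 3′ UTR at chr5:75195150-75195474 ranked 21 in DMSO MCE. Vegfa went from 1 peak to 4, and Fgf7 from 1 to 3.

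Mdm2, the ligase that degrades p53, showed a like thinning in a kept gene. In DMSO Pre it had 4 peaks, with ranks 2, 13 and 15 for the best of them. In DMSO MCE it had 1, of rank 15 and score 75.5, which overlapped the rank 2 peak near the end of the coding sequence at chr10:117690100-117690549. Of 15 p53 pathway genes with a peak, 5 were kept, 3 Pre-only and 7 MCE-only. The ER chaperone gene Hspa5 and the protease gene Adamts1 were strong at both stages, with ranks 5 and 16 for Hspa5 and 24 and 29 for the shared Adamts1 peak.

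Regulators of fat cell formation were divided. Of 22 with a peak, 8 were kept, 3 moved, 2 Pre-only and 9 MCE-only. Hmga2, Klf9 and Klf13 kept 3 to 4 peaks on each side, and the corepressor gene Ncor1 went from 2 to 5. Krüppel-like Klf5 had 1 MCE-only peak and the retinoid receptor gene Rxra 1 Pre-only peak. Of the fat cell genes 11 had a peak, with 2 kept, 2 Pre-only and 7 MCE-only (63.6% against 52.0% of all coding genes). With the random draw 5 of 9 were MCE-only (55.6% against 40.9%). The group's 5 peaks in DMSO Pre became 16, but 6 with the random draw. Genes for lipid synthesis were mostly MCE-only, as was the group, with 4 peaks in Hmgcs1, 3 in Acsl4 and 2 each in Acly and Acaca. Lipid droplet coat genes were Pre-only, Plin2 with 1 peak and Plin4 with 2.

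The m6A machinery held no Pre-only gene. Of 16 with a peak, 8 were kept, 1 moved and 7 MCE-only, and with the random draw 7 were kept, 2 moved, 0 Pre-only and 3 MCE-only. MCE-only members included the writer scaffold genes Virma, with 3 peaks, and Rbm15b, with 6. Of 57 chromatin regulator genes with a peak, 21 were kept, 5 moved, 4 Pre-only (7.02% against 13.4%) and 27 MCE-only (47.4% against 52.0%, near the background). Among the MCE-only ones were Dnmt1, which copies DNA methylation at replication, Arid1a and Smarca4, with 4 peaks each.

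Splicing and translation genes fell into all 4 classes. Among 56 splicing and RNA-binding genes with a peak, 15 were kept, 9 moved, 10 Pre-only and 22 MCE-only. Pre-only was 17.9% against 13.4%, 36.7% against 28.2% with the random draw and 29.2% against 28.9% with the highest scores. Pre-only peaks of high rank lay in Hnrnpa1 (rank 50), Sfpq (70) and Tra2b (75). Of 27 translation genes 9 were Pre-only, or 33.3% against 13.4%, 12 of 23 (52.2%) with the random draw and 12 of 24 with the highest scores. The Pre-only genes included the elongation factor genes Eef1a1 and Eef2 and the poly(A)-binding protein gene Pabpc1, while the nucleolar genes Ncl, Nop56 and Nop58 were MCE-only. Of the 9 Pre-only translation genes, 8 had a peak in rhein MCE and 3 in DMSO Diff. Of all Pre-only coding genes 25.3% had a peak in rhein MCE, and 25.3% in DMSO Diff. Most of the 9 were thus marked outside DMSO Pre as well.

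In the ubiquitin list 33 had a peak, with 16 MCE-only (48.5% against 52.0% of all coding genes) and 2 Pre-only (6.06% against 13.4%). In the cytoskeleton and adhesion list 41 had a peak, with 14 MCE-only (34.1% against 52.0%, and 25% against 40.9% with the random draw), 8 Pre-only (19.5%) and 13 kept, among which Plec went from 15 peaks to 19. Markers of blood and vessel cells had a peak in 0 of 13 genes. Fibroblast markers had one in 9 of 16, Col1a1, Col1a2, Col3a1, Dcn, Pdgfra, Pdgfrb, Vim, Thy1 and Ly6a. These are peaks and not expression levels.

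**Figure D4:**
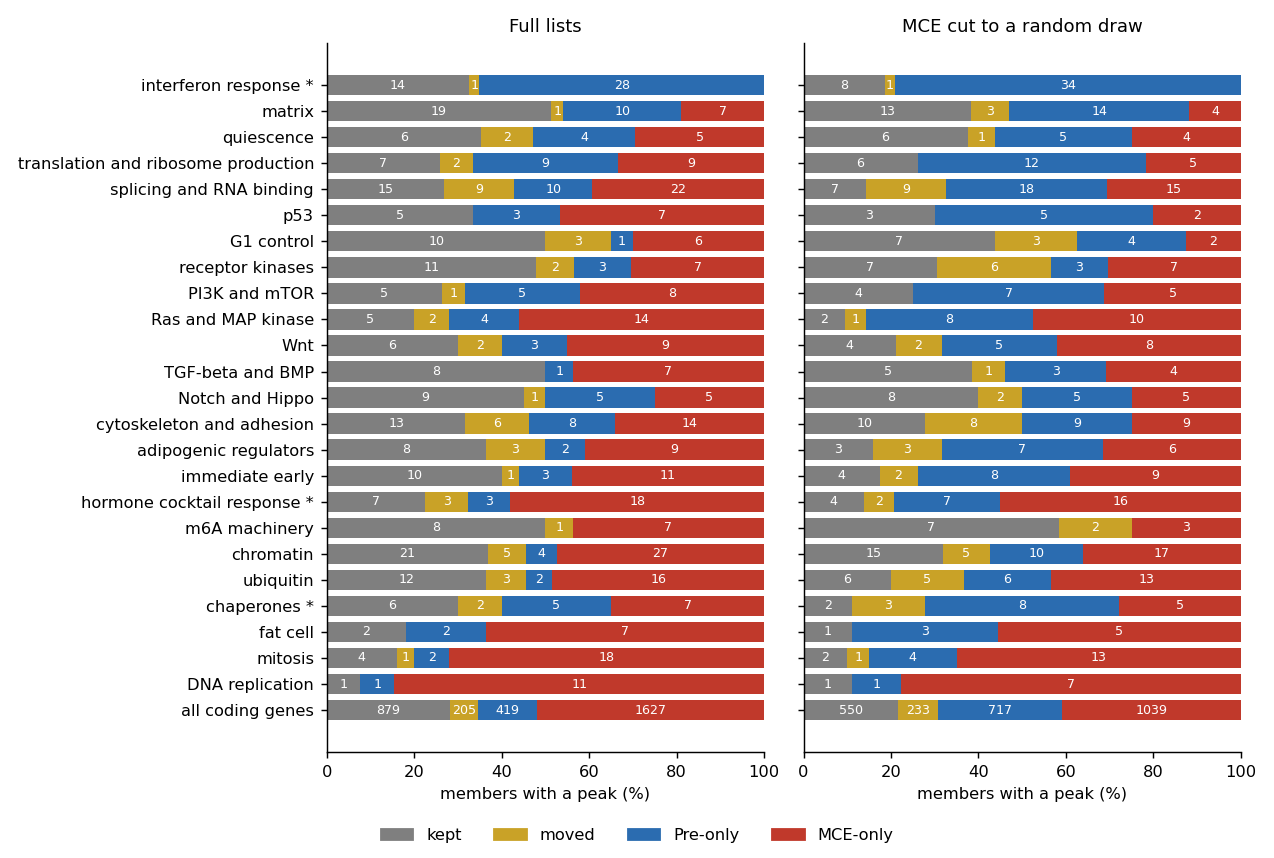
Class shares (horizontal axis, percent of members with a peak) of 24 gene groups and of all coding genes, for the full lists (left) and after the random cut of DMSO MCE (right), with numbers of genes in the bars. An asterisk marks groups written after values had been seen. Interferon genes have no MCE-only member on either side, and DNA replication genes are 11 of 13 and 7 of 9 MCE-only.

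Moved genes had peaks in both lists, but none that overlapped. A kept gene also becomes moved when its shared peak is missed in 1 list. With the random draw moved coding genes rose from 205 to 233, and Col18a1, Ier5, Prune2 and Ptn turned from kept to moved. For 199 moved genes both peaks fitted on 1 transcript, and the closest pair was separated by a median of 425 bases (quartiles 75 and 1250). In 51 genes the gap was under 100 bases, so that the peaks nearly touched, and in 93 it exceeded 500 bases. The clearest cases had exactly 1 peak in each list, 104 genes. In 69 of them, or 66.3% (56.8 to 74.7), the MCE peak lay closer to the 5′ end than the Pre peak. Of 97 such coding genes 49 stayed in the same part, 20 went from 3′ UTR to coding sequence and 8 the other way. A further 16 came to lie in the 5′ UTR, 10 from the coding sequence and 6 from the 3′ UTR, against 4 that left it.

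Cnn3, which encodes the actin-binding calponin 3, had the strongest peak of any moved gene. Its DMSO Pre peak in the 3′ UTR at chr3:121457702-121457751 ranked 4, with a score of 132.8. At MCE it had 2 peaks, both in the 5′ UTR, the better of rank 733 at chr3:121426497-121426646. In Ryk, a Wnt receptor gene, the peak moved by 662 bases toward the 5′ end within the 3′ UTR, from rank 38 to rank 1187. In Cdkn2c, an inhibitor of CDK4 and CDK6, it moved from the coding sequence to the 5′ UTR with similar ranks, 1134 and 1300. B2m went against this direction, from the 5′ UTR to the 3′ UTR.

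Among the 1180 genes with placed peaks in both lists, 421 had more peaks at MCE, 555 the same number and 204 fewer. With the random draw the order turned, with 171 of 845 genes higher and 229 lower. The general gain in peaks per gene was thus not seen with the random draw, and its cause was not tested. Akap11, Nid1 and Egr1 had more peaks than in DMSO Pre in both settings. With the draw they had 3, 5 and 3 peaks, against 1, 4 and 1 in DMSO Pre.

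The classes differed in where and on what they lay. Peak midpoints fell in the 5′ UTR for 7.78% (6.92 to 8.73) of MCE-only peaks in coding transcripts, against 5.40% (4.29 to 6.78) of Pre-only and 5.79% (4.57 to 7.31) of shared peaks on the MCE side. With the random draw MCE-only gave 7.86%. Within 200 bases of the end of the coding sequence lay 17.9% (15.9 to 20.1) of Pre-only peaks, against 24.5% (23.1 to 26.0) of MCE-only and 26.5% (24.0 to 29.2) of shared peaks on the Pre side. The peaks that were lost thus held less of the position typical for m6A than those that were gained.

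Exon architecture followed the same order. The midpoint lay in an exon of over 400 bases for 84.4% (82.3 to 86.3) of shared DMSO Pre peaks, 67.3% (64.9 to 69.6) of Pre-only and 74.7% (73.2 to 76.0) of MCE-only peaks. Internal exons held 38.4% (36.0 to 40.9) of Pre-only, 1117 of 3721 (28.6 to 31.5%) MCE-only and 25.8% (23.5 to 28.3) of shared DMSO Pre peaks. Shared peaks were also longer, with a median of 175 exonic bases in DMSO Pre and 200 in DMSO MCE against 100 in both single-list classes. They scored higher too, with medians of 8.31 against 7.37 in DMSO Pre and 9.10 against 6.90 in DMSO MCE.

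The motif GGAC, read on the transcript strand alone, was present in 64.9% (62.3 to 67.5) of shared DMSO Pre peaks, 43.4% (40.9 to 45.9) of Pre-only and 48.7% (47.1 to 50.3) of MCE-only peaks. Because longer peaks hold more motifs by length alone, all windows of the same length on the same transcripts were counted, and 47.1%, 35.5% and 37.7% of them held it. With the random draw the order of the single-list classes turned, with GGAC in 49.1% of Pre-only and 47.0% of MCE-only peaks, where Pre-only takes in peaks that the full DMSO MCE list shares. Per kb of peak there were 7.79, 6.06 and 6.74 GGAC. The longer motif GGACT, which contains GGAC, was in 32.2% of shared DMSO Pre, 15.9% of Pre-only and 19.6% of MCE-only peaks. Of the 100 Pre-only peaks of highest score 37 held GGAC, against 65 of the 100 highest MCE-only peaks, with median lengths of 87.5 and 225 bases. The Pre-only peaks of Col1a2 (rank 10), Cnn3 (rank 4) and Pdgfra (rank 3) were among those without it.

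**Figure D5:**
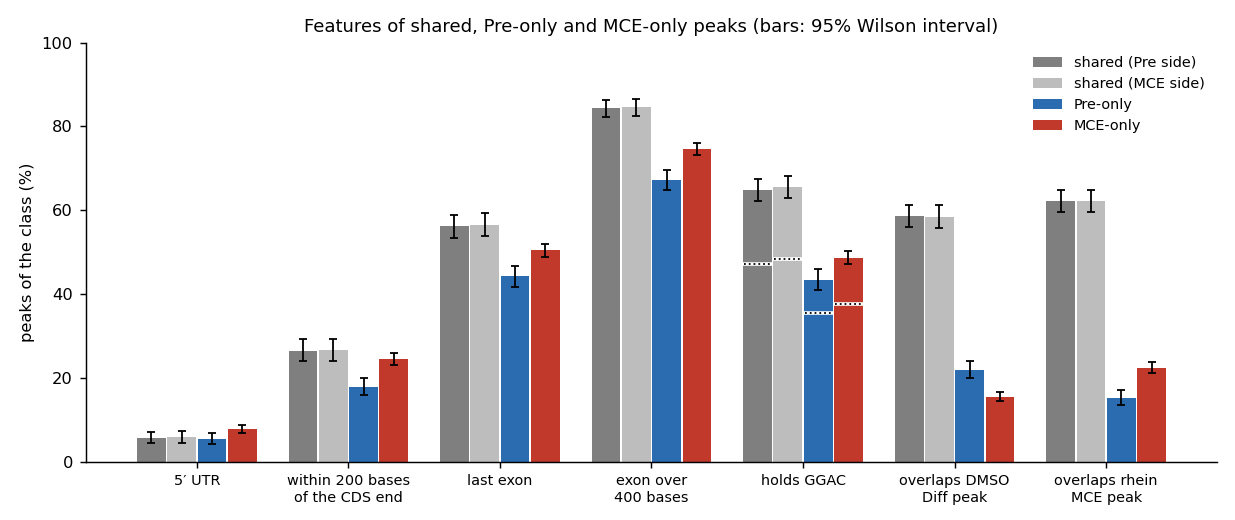
Share of peaks (percent, with 95% Wilson intervals) in 4 classes that have each feature. Dotted marks on the GGAC bars give the share of all windows of equal length on the same transcripts. MCE-only bars stand between shared and Pre-only bars for the long exons (74.7%) and GGAC (48.7%), and above both for the 5′ UTR (7.78%).

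Recurrence in the other lists separated the classes most. Of shared DMSO MCE peaks, 58.5% (55.8 to 61.2) overlapped a DMSO Diff peak and 62.3% (59.6 to 64.9) a rhein MCE peak. Pre-only peaks did so in 21.9% (19.9 to 24.0) and 15.3% (13.6 to 17.2), and MCE-only peaks in 15.5% (14.4 to 16.7) and 22.4% (21.1 to 23.7). Pre-only peaks thus overlapped DMSO Diff more often, and MCE-only peaks rhein MCE. With the random draw the shares for Pre-only and MCE-only peaks were 31.4% and 15.4% in DMSO Diff, and 27.6% and 22.0% in rhein MCE. There Pre-only takes in peaks that the full DMSO MCE list shares, so these shares do not compare like classes. In at least 1 of the other lists were 29.7% of the Pre-only and 29.8% of the MCE-only peaks. Top2a and Akap11, with 7 and 8 peaks in DMSO Diff and 9 and 8 in rhein MCE, were marked outside DMSO MCE as well. Mki67 and Has2 had 0 peaks in DMSO Diff and 3 and 2 in rhein MCE.

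Small nuclear RNA (snRNA) genes formed a non-coding group with strong shared peaks. Shared snRNA peaks numbered 68, with 44 Pre-only and 50 MCE-only. U6, the catalytic snRNA of the spliceosome, is methylated by METTL16 within its ACAGAGA box. Of the shared snRNA peaks 58 held ACAGAGA, as did 43 of the Pre-only and 41 of the MCE-only peaks, against 42.2% of all 1383 annotated snRNA transcripts.

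Gm24144 ranked 7 in DMSO Pre and 2 in DMSO MCE over an identical span. Shared snRNA peaks had a median rank at 33.9% of the DMSO Pre list and 7.88% of the DMSO MCE list, and 5 and 17 of them were among the 100 highest scores. Since the copies are nearly identical, reads cannot be assigned to one of them with certainty, and which copy is Pre-only or MCE-only is uncertain. An antisense RNA gene held the best Pre-only peak, in Gm26827 (rank 1, score 735), and MCE-only peaks in Gm28154 (rank 28) and Gm49544 (rank 83). Whether the libraries kept strand is not stated in the sources used here, so an antisense gene and its partner cannot be told apart.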

How the data were processed

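m6A MeRIP-seq (IP) and input libraries of 3T3-L1 cells were used, 1 of each per condition. Per the submitters' processing notes, the authors used Trim Galore 0.6.5, HISAT2 2.1.0, SAMtools 1.9 and Picard 2.23.5 with mm10, and per the methods called peaks with exomePeak2. The deposited peak lists give a score for each peak under a log2 fold change heading, but its values are too large for a fold change, so it was used only to rank peaks within a list. Which libraries entered each call was not established.

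For placement, a GENCODE M21 transcript had to hold the first and the last base of a peak in exons on its strand, and a coding one and then the longest was preferred (97.6% of DMSO Pre and 97.0% of DMSO MCE peaks placed), and genes came from that placement. The placed symbol differed from the listed one for 28.4% and 27.0%. With 1 sample a side no test was run. Scripts were tested on simulated data. Alternatives were another overlap rule, exonic overlap, score cuts, the random draw (fixed seed), the listed transcript part and the motif window.

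Members and lists were chosen with earlier results of these data known. Genes were named by the most peaks or highest scores within a class (10 each), the 10 best shared peaks, the 10 largest gains and up to 6 per class in each list. Genes with large losses, and the interferon, hormone and chaperone lists, were added after values had been seen. Results for 1 interferon gene and the sequences of snRNA copies are not reported here.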

Additional observations from a re-analysis of the deposited data

How the results depend on the processing

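The share of DMSO Pre peaks that were shared, 45.1%, was 44.8% by exonic overlap, 40.8% for midpoints within 100 bases, 29.7% when 50% of both spans had to overlap, 41.1% for the upper 50% of scores, 36.4% against the highest DMSO MCE scores, 26.2% with the random draw and 25.3% as the mean over all draws. For DMSO MCE peaks, 1280 of 5128 became 22.5%, 16.4%, 23.1% and 36.0% under the midpoint, 50%-span, upper-score and highest-score settings. Kept genes numbered 976, but 609 with the random draw and 488 in the upper 50% of scores. Moved genes went from 212 to 114 in the upper 50%, Pre-only genes from 547 to 883 with the draw, and MCE-only genes from 1780 to 1122 with the draw, 911 with the highest scores and 1108 in the upper 50%. By the authors' listed part, the 5′ UTR share was 8.13% for shared DMSO MCE, 7.87% for Pre-only and 11.3% for MCE-only peaks. In 100-base windows GGAC was in 57.5% of shared DMSO MCE peaks. With 50% of both spans, recurrence in DMSO Diff and rhein MCE was 37.7% and 43.5% for shared DMSO MCE, 12.7% and 9.16% for Pre-only, and 8.34% and 13.6% for MCE-only peaks. The cause of these shifts was not tested. No paired analysis was possible because each condition had 1 IP and 1 input. Depth is unknown, and a weak peak can be missed in either list.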

Other observations

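Several gene families outside the groups above lay mostly on the MCE side. Of all coding genes with a peak, 52.0% were MCE-only, and 40.9% with the random draw. Of 12 proteasome subunit genes with a peak, 8 were MCE-only, 3 kept, 1 moved and 0 Pre-only. Of 40 solute carrier genes, 26 were MCE-only and 6 Pre-only, and with the random draw 19 of 33 were MCE-only. Numbered transmembrane protein genes were MCE-only in 22 of 29 cases, and in 11 of 18 with the draw. Of 20 chaperone genes with a peak, a list written after values had been seen, 7 were MCE-only, 5 Pre-only, 6 kept and 2 moved.

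Signalling groups were mixed. Of all coding genes with a peak, 52.0% were MCE-only and 13.4% Pre-only. Of 25 Ras and MAP kinase genes with a peak, 14 were MCE-only (56.0%) and 4 Pre-only (16.0%). Of 19 PI3K and mTOR genes 8 were MCE-only (42.1%) and 5 Pre-only (26.3%). Of 20 Wnt genes 9 were MCE-only (45.0%) and 3 Pre-only (15.0%). Of 16 TGF-beta and BMP genes 7 were MCE-only (43.8%), 1 Pre-only (6.25%) and 8 kept. Notch and Hippo genes were even, with 5 MCE-only and 5 Pre-only of 20.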
